A study of Mus musculus with 4 samples.

Results

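The 33 genes described here carry glucose into the cell, break it down to pyruvate and lactate, exchange lactate across the plasma membrane, and store and release glycogen. They were chosen by symbol from 52022 genes with a matched transcript, and 32 of them had enough counts to be tested, with Aldoc the exception. Polyadenylated RNA of brown adipose tissue was sequenced in 4 libraries from male mice. The KO group (KO 1 and KO 2) came from mice without ATF4 in their thermogenic adipocytes, and the WT group (WT 1 and WT 2) from wild-type counterparts. All were fed ad libitum and had received a diet of 60% fat for 12 weeks. The deletion is stated for thermogenic adipocytes and not for the other cells of the tissue. The means of deletion, the strain and the age are not stated in the sources used here. The library names in the labels begin with S2 (KO 2 and WT 1) or S1 (KO 1 and WT 2), so each prefix holds 1 library of each genotype. The meaning of the prefix is not stated there either. Since no label says that the libraries came from separate animals, p-values cover only the spread among the 4 libraries, which may be technical.

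Brown adipocytes take up glucose through the insulin-regulated transporter GLUT4 and through GLUT1, and trap it as hexose phosphate by hexokinase. Glycolysis then yields pyruvate and lactate, the glycerol phosphate shuttle passes cytosolic reducing equivalents to the mitochondrial electron chain and supplies the backbone of triglycerides, and part of the hexose phosphate is laid down as glycogen. Monocarboxylate transporters move lactate and protons across the plasma membrane in either direction. ATF4 is a transcription factor of the integrated stress response that binds, as a dimer with C/EBP proteins, to a composite DNA element.

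The libraries held 25985367 and 30405113 estimated counts in KO 1 and KO 2, against 32714456 and 34813870 in WT 1 and WT 2. Atf4 itself measured 25.0 and 24.5 CPM (counts scaled to a library total of 1000000, with TMM-scaled library sizes) in KO 1 and KO 2, against 29.2 and 107 CPM in WT 1 and WT 2. Its log2 fold change, KO over WT, was -1.46 (SE 0.57, unadjusted p = 0.045, adjusted p = 0.9998, edgeR). The library labelled WT 1 was thus near the KO libraries for the targeted gene, and fold changes without it are given below for Pfkm, Tpi1 and Slc16a3. Skeletal muscle markers stood apart between the genotypes. The 19 muscle genes that are not enzymes of these pathways summed to 3607 and 3167 CPM in KO 1 and KO 2, against 42.5 and 61.2 CPM in WT 1 and WT 2. Of the 19, 17 were called higher in KO (adjusted p under 0.05) and 1 was at 0 in both WT libraries. Brown adipocyte markers, Ucp1 among them, summed to 19361 and 16262 CPM in KO 1 and KO 2 and to 16627 and 17515 CPM in WT 1 and WT 2. Ucp1 and Fabp4 were the largest parts of this sum. Of the 14 brown adipocyte markers, 0 were called. Without overlap 3 were lower (Dio2, Prdm16 and Adipoq) and 1 higher (Cox7a1) in KO, beside 26.3% of all genes tested in both directions. White adipocyte markers summed to 94.2 and 166 CPM in KO 1 and KO 2, against 397 and 293 CPM in WT 1 and WT 2. Lep was the largest part of that sum, with 42.7 and 111 CPM in KO 1 and KO 2, against 302 and 181 CPM in WT 1 and WT 2. Of the 8 white adipocyte markers tested, 0 were called. Without overlap 5 were lower and 0 higher in KO, beside 26.3% of all genes tested in both directions. Fibroblast markers summed to 399 and 610 CPM in KO 1 and KO 2, against 652 and 986 CPM in WT 1 and WT 2. Without overlap 6 of the 10 fibroblast markers and 6 of the 14 macrophage markers tested were lower in KO, beside the same 26.3%. In both lists 0 were higher without overlap and 0 were called. In bulk tissue, fewer cells of a type and less RNA per cell cannot be told apart.

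Per unit length the 33 genes spanned a wide range of levels. The most abundant was Gpd1, cytosolic glycerol phosphate dehydrogenase, with a mean of 2737 TPM (abundance corrected for transcript length and scaled to a total of 1000000) over the 4 libraries. It was followed by Gapdh, the glyceraldehyde phosphate dehydrogenase of glycolysis, with 2444 TPM. Aldoa, an aldolase, had 2258 TPM, and the enolase Eno1 had 1406 TPM. Below these enzymes of the lower pathway stood the pyruvate kinase Pkm with 961 TPM and the lactate dehydrogenase Ldha with 865 TPM. In each library these 6 genes lay above the glucose transporters. Slc2a4, which encodes GLUT4, had a mean of 139 TPM and Slc2a1, which encodes GLUT1, had 2.95 TPM. Aldoc, the brain form of aldolase, was close to undetected, with 9 and 8 counts in KO 1 and KO 2 and 6 and 10 counts in WT 1 and WT 2.

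**Figure D1:**
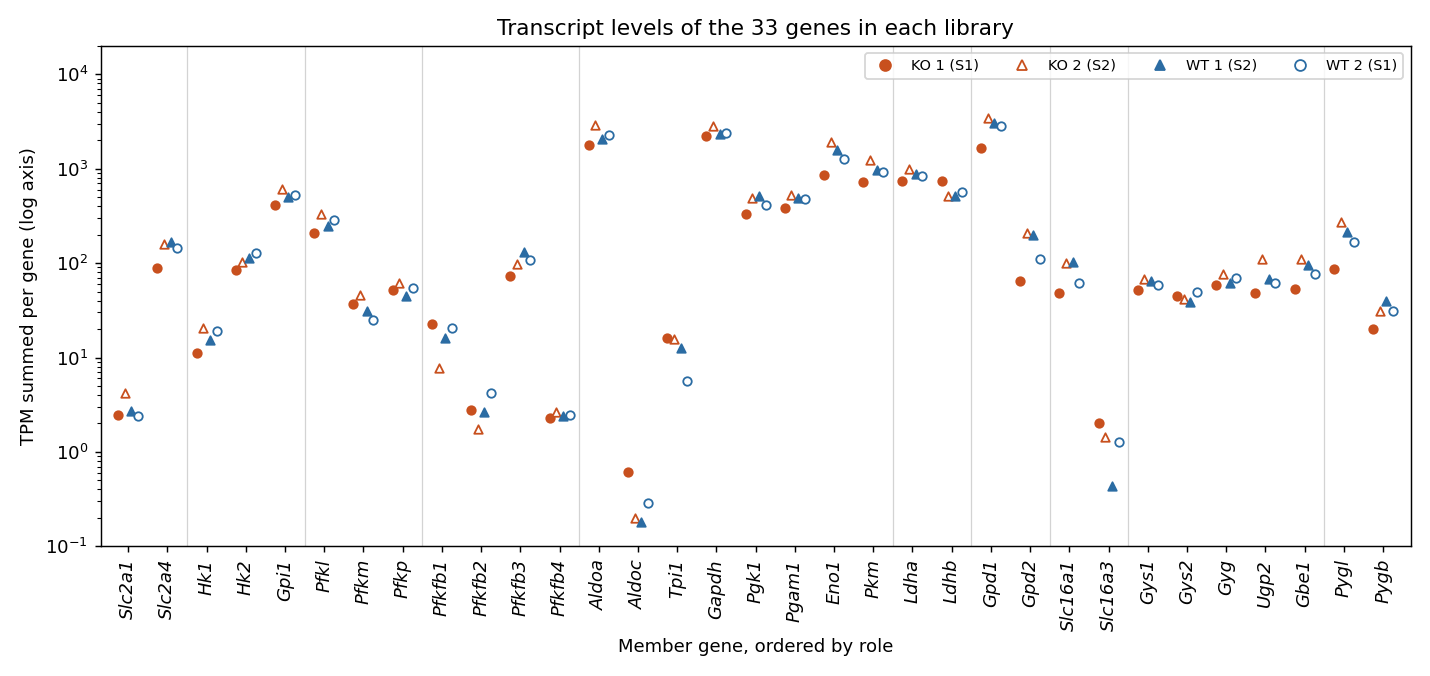
TPM summed per gene on a log axis for each of the 33 genes, ordered by role with lines between roles. Orange symbols are KO and blue symbols WT, triangles are prefix S2 and circles S1, and filled symbols are replicate 1. Gpd1, Gapdh, Aldoa and Eno1 lie at the top, and Slc2a1, Slc16a3 and Aldoc near the bottom.

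Several steps were carried by 1 of the available isoenzymes. Slc2a4 held 97.3 and 97.4% of the TPM of the Slc2a1 and Slc2a4 pair in KO 1 and KO 2, against 98.4 and 98.4% in WT 1 and WT 2. Of hexokinase TPM, Hk2, the insulin-responsive form, held 88.3 and 83.3% in KO 1 and KO 2, against 88.2 and 87.0% in WT 1 and WT 2. Among the phosphofructokinases, the liver form Pfkl held 70.1 and 75.8% in KO 1 and KO 2, against 76.7 and 78.3% in WT 1 and WT 2. These shares put the same isoenzyme first in every library. Pfkfb3, one of the bifunctional enzymes that make and remove the fructose bisphosphate activator of phosphofructokinase, held 72.7 and 89.0% of PFKFB TPM in KO 1 and KO 2, against 86.3 and 79.9% in WT 1 and WT 2. Glycogen synthase TPM was more evenly split, with the muscle form Gys1 at 53.5 and 62.0% in KO 1 and KO 2 and at 63.0 and 54.7% in WT 1 and WT 2, and the liver form Gys2 making up the rest. By estimated counts, which are not corrected for length, Gys1 lay well above Gys2. Gys1 had 4973 and 6582 counts in KO 1 and KO 2 and 6897 and 6731 in WT 1 and WT 2. Gys2 had 1209 and 1904 counts in KO 1 and KO 2 and 1870 and 2032 in WT 1 and WT 2. Of the monocarboxylate transporter pair, Slc16a1 (MCT1) held 96.0 and 98.6% in KO 1 and KO 2, against 99.6 and 98.0% in WT 1 and WT 2.

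Pkm gives rise to transcripts for the M2 form of pyruvate kinase, typical of proliferating and many adult tissues, and for the M1 form typical of muscle and brain. The M2 transcript Pkm-201 had 502 and 710 TPM in KO 1 and KO 2, against 578 and 571 TPM in WT 1 and WT 2. The M1 transcript Pkm-202 had 146 and 430 TPM in KO 1 and KO 2, against 345 and 281 TPM in WT 1 and WT 2. M2 therefore made up 77.4 and 62.3% of the pair in KO 1 and KO 2, against 62.6 and 67.0% in WT 1 and WT 2, with KO 1 the highest library and the genotypes overlapping. The 2 transcripts share most of their exons, so the split between them rests on the few reads that tell them apart.

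The first comparison asks how these genes differ between mice without ATF4 in thermogenic adipocytes and wild-type mice. None of the 32 genes tested was called (adjusted p under 0.05) between KO and WT by edgeR's quasi-likelihood test with Benjamini-Hochberg adjustment over all 15643 genes, where 0.780% of all genes were called (122 genes, with 120 or 0.767% higher in KO). The counts of members called by DESeq2 and by limma on log2(TPM + 1) were also 0, beside 1.39% and 0.793% of all genes. Unadjusted p was under 0.05 for 3 members, all higher in KO (Slc16a3, Pfkm and Tpi1), beside 4.02% of all genes tested in both directions and 2.52% higher in KO. The members' log2 fold changes, KO over WT, had a median of -0.00092, with 16 above and 16 below 0, against a median of 0.002 over all genes tested, of which 50.3% lay above 0. KO and WT values did not overlap for 5 of the 32 members, a share of 15.6% beside 26.3% of all genes tested. These were Slc16a3, Tpi1, Pfkm and Gyg, higher in KO, and Pfkfb4, lower in KO.

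**Figure D2:**
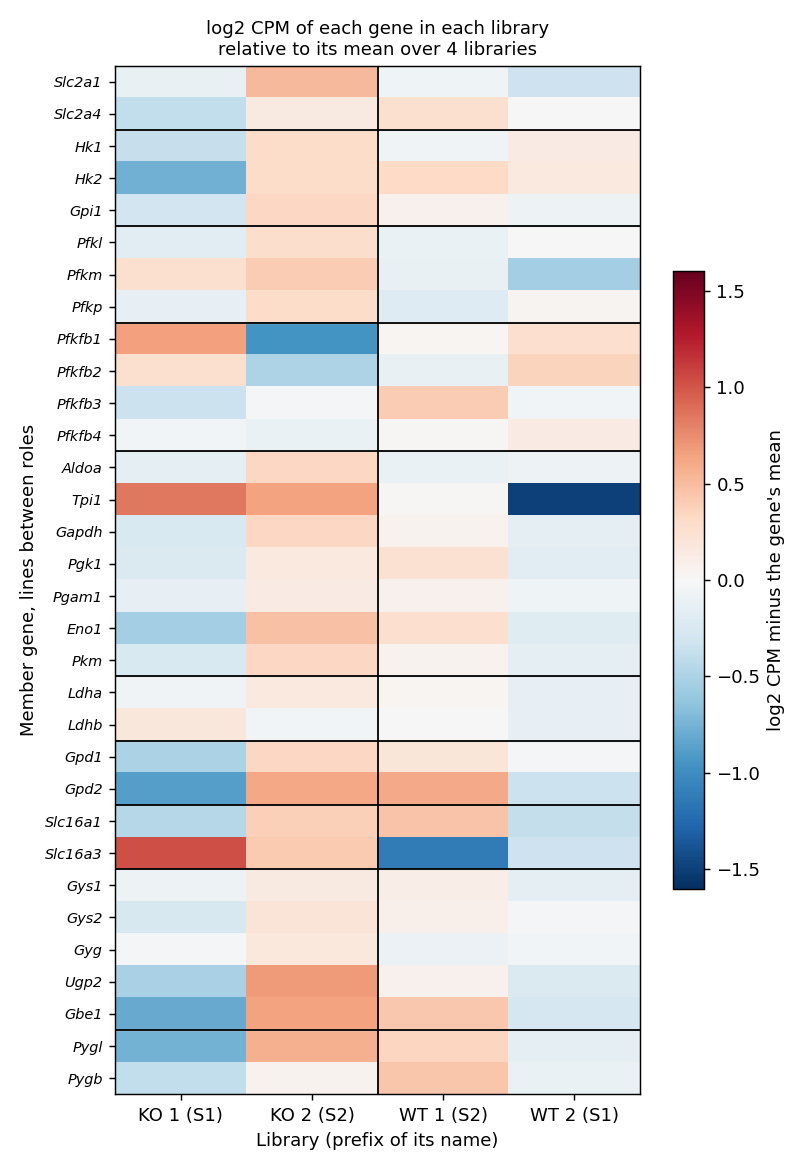
Heat map of log2 CPM in each library minus the gene's mean over the 4 libraries, for the 32 genes tested, with KO libraries left of WT libraries and lines between roles. KO 1 is the palest to bluest column for most glycolytic and glycogen genes and KO 2 the reddest, while Slc16a3, Tpi1 and Pfkm are red in both KO libraries and white to blue in both WT libraries.

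The KO libraries themselves stood at opposite ends. KO 1 was the lowest library of the 4 for 20 of the 32 members, beside 35.0% of all genes tested, and KO 2 was the highest for 20, beside 24.8% of all genes. KO 1 also held the lowest summed macrophage markers, with 124 and 363 CPM in KO 1 and KO 2 against 437 and 329 CPM in WT 1 and WT 2, and the highest summed erythroid markers, with 2028 and 908 CPM in KO 1 and KO 2 against 1131 and 1070 CPM in WT 1 and WT 2. Mitochondrially encoded protein genes took 38.4 and 32.2% of gene counts in KO 1 and KO 2, against 33.3 and 33.1% in WT 1 and WT 2. The part of these in the members' levels was not tested. Taken within a prefix, the members' median difference in log2 CPM, KO minus WT, was 0.17 in S2 (KO 2 against the library labelled WT 1) and -0.14 in S1 (KO 1 against WT 2), so the medians within the 2 prefixes had opposite signs.

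At uptake and the first steps KO 1 likewise lay below KO 2. Slc2a4 measured 233 and 340 CPM in KO 1 and KO 2, against 365 and 307 CPM in WT 1 and WT 2. KO 1 was lowest and KO 2 lay between the WT libraries, and the log2 fold change was -0.23 (SE 0.26, adjusted p = 0.9998, edgeR). Slc2a1 measured 6.45 and 10.1 CPM in KO 1 and KO 2, against 6.72 and 5.58 CPM in WT 1 and WT 2, with a log2 fold change of 0.43 (SE 0.28) that was 0.060 without KO 2 and 0.72 without KO 1. Hk2 had the lowest fold change of all members. It measured 160 and 335 CPM in KO 1 and KO 2, against 340 and 304 CPM in WT 1 and WT 2. Its log2 fold change was -0.38 (SE 0.36), and without KO 1 it was 0.06. Hk1 and Gpi1, the glucose phosphate isomerase, had log2 fold changes of -0.04 (SE 0.26) and 0.05 (SE 0.28).

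Pfkm, the muscle form of phosphofructokinase (ENSMUSG00000033065, chromosome 15, 98092589 to 98132451 on the plus strand of GRCm38), measured 110 and 122 CPM in KO 1 and KO 2, against 84.2 and 63.0 CPM in WT 1 and WT 2. Both KO libraries lay above both WT libraries, and the log2 fold change was 0.65 (SE 0.21, unadjusted p = 0.022, adjusted p = 0.924, edgeR). Its direction held with each library left out, between 0.46 and 0.88, and without the library labelled WT 1 it was 0.88. Pfkl and Pfkp, the platelet form, overlapped between genotypes, with log2 fold changes of 0.11 (SE 0.25) and 0.17 (SE 0.22). Pfkm held 12.4 and 10.4% of phosphofructokinase TPM in KO 1 and KO 2, against 9.57 and 6.81% in WT 1 and WT 2. The skeletal muscle markers given above were likewise higher in both KO libraries. Within each genotype the order was reversed, with Pfkm higher in KO 2 and WT 1 and the summed markers higher in KO 1 and WT 2. Single markers differed in this order, with Acta1 at 664 and 455 CPM and Myh4 at 520 and 615 CPM in KO 1 and KO 2. In WT, Myl1 was the largest part of the sum, with 38.7 and 44.3 CPM in WT 1 and WT 2. The part of these markers in the level of Pfkm was not tested. Of the PFKFB genes, Pfkfb3 measured 320 and 402 CPM in KO 1 and KO 2, against 541 and 394 CPM in WT 1 and WT 2, with a log2 fold change of -0.37 (SE 0.25). WT 1 was its highest library, and the fold change lay between -0.59 and -0.13 with 1 library left out. Pfkfb4 was lower in both KO libraries on the CPM scale by a log2 fold change of -0.16 (SE 0.22), and on the log2(TPM + 1) scale the difference was 0.0039.

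From aldolase to lactate dehydrogenase the fold changes were small. Excluding Tpi1, the 8 tested genes of these steps had log2 fold changes, KO over WT, between -0.07 (Pgk1, phosphoglycerate kinase) and 0.21 (Aldoa), each smaller than its SE. Gapdh measured 2033 and 3028 CPM in KO 1 and KO 2, against 2509 and 2169 CPM in WT 1 and WT 2. Pgam1, a phosphoglycerate mutase, had 699 and 836 CPM in KO 1 and KO 2, against 802 and 730 CPM in WT 1 and WT 2. For both genes the KO libraries lay outside the WT libraries on either side. Ldha measured 1147 and 1326 CPM in KO 1 and KO 2, against 1210 and 1084 CPM in WT 1 and WT 2, with a log2 fold change of 0.11 (SE 0.23). Ldhb measured 370 and 317 CPM in KO 1 and KO 2, against 324 and 297 CPM in WT 1 and WT 2, with a log2 fold change of 0.15 (SE 0.20). An unmatched transcript with the length and the counts of the main Ldhb transcript held another 56.1 and 76.1% of the Ldhb count in KO 1 and KO 2 and 75.4 and 69.5% in WT 1 and WT 2, so the level of Ldhb is uncertain.

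Tpi1, triose phosphate isomerase (ENSMUSG00000023456, chromosome 6, 124810586 to 124814296, minus strand), had only 511 and 507 counts in KO 1 and KO 2, against 354 and 145 counts in WT 1 and WT 2. Its mean of 12.5 TPM was far below the neighbouring steps Aldoa and Gapdh. On the CPM scale it measured 20.0 and 17.4 in KO 1 and KO 2, against 11.3 and 3.95 in WT 1 and WT 2. The log2 fold change was 1.30 (SE 0.47, unadjusted p = 0.034, adjusted p = 0.9998, edgeR). The groups did not overlap, and WT 2 stood apart as the lowest. Tpi1 was called by edgeR without the library labelled WT 1 (log2 fold change 2.24, adjusted p = 0.0022, 1.09% of all genes called) and when the prefix entered as a block (1.44, adjusted p = 0.0497, 2.05% of all genes called). Without WT 2 its log2 fold change was 0.72, and over all its alternatives the adjusted p lay between 5.7e-06 and 1.00. Whether transcripts that the annotation used here did not match belong to Tpi1 was not settled, so its level and fold change are uncertain.

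Copies elsewhere in the genome could take reads from several of these enzymes. Gapdh had 43 genes that share at least 50% of their 31-base words with it, and these together held 1.62 and 2.17% of the Gapdh count in KO 1 and KO 2 and 1.96 and 2.06% in WT 1 and WT 2. The 3 copies of Pgk1 held up to 1.01%, in KO 2, and the 2 copies of Eno1 up to 0.171%. The single copies of Tpi1 and Pgam1 were at 0 counts in all 4 libraries. Aldoa had no such copy, though a second gene with its symbol held 11 and 13 counts in KO 1 and KO 2 and 6 and 19 counts in WT 1 and WT 2. Adding the copies called no member in either comparison.

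The 2 genes of the glycerol phosphate shuttle overlapped between genotypes. Gpd1 measured 5152 and 9226 CPM in KO 1 and KO 2, against 8399 and 7240 CPM in WT 1 and WT 2, a log2 fold change of -0.12 (SE 0.38). Gpd2, the mitochondrial enzyme of the shuttle, measured 401 and 1137 CPM in KO 1 and KO 2, against 1121 and 584 CPM in WT 1 and WT 2, a log2 fold change of -0.15 (SE 0.56). KO 1 was the lowest library and KO 2 the highest for both.

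Lactate transport split between its members. Slc16a3 (ENSMUSG00000025161, chromosome 11, 120948480 to 120960868, plus strand) encodes MCT4, a transporter best known for lactate export from glycolytic cells such as fast muscle fibres. It measured 5.12 and 3.32 CPM in KO 1 and KO 2, against 1.15 and 1.99 CPM in WT 1 and WT 2. Both KO libraries lay above both WT libraries, and the log2 fold change was 1.42 (SE 0.40, unadjusted p = 0.013, adjusted p = 0.691, edgeR), the highest of all members. The difference was close within each prefix, 1.48 in S2 and 1.34 in S1 as KO minus WT in log2 CPM. Slc16a3 was called when the prefix entered as a block (1.44 on the log2 scale, adjusted p = 0.0331), a fit with 1 residual degree of freedom that called 320 genes. It was also called with no filter on low counts (1.42, adjusted p = 0.0077), a fit that called 1.70% of all genes. Without the library labelled WT 1 the log2 fold change was 1.08, and the adjusted p over all alternatives lay between 0.0077 and 1.00. Skeletal muscle markers were also higher in both KO libraries. Their sum was higher in the same library of each genotype as Slc16a3, KO 1 and WT 2. Single markers differed in this order, and Myh4 was higher in KO 2. Their part in the level of Slc16a3 was not tested. Slc16a1 (ENSMUSG00000032902, chromosome 3, 104638668 to 104658462, plus strand), which encodes MCT1, measured 238 and 427 CPM in KO 1 and KO 2, against 448 and 252 CPM in WT 1 and WT 2, a log2 fold change of -0.07 (SE 0.40).

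Promoters of this pair are shown because values did not overlap between genotypes for Slc16a3 and between library prefixes for Slc16a1, although neither gene was called in that comparison by edgeR's quasi-likelihood test without a further term. Both are RefSeq windows of the GRCm38.p6 assembly from 250 bases before to 50 after the start site, on the plus strand, at chr3:104638414-104638713 for Slc16a1 and chr11:120948817-120949116 for Slc16a3. Capitals mark ACGTG, the core of the hypoxia response element, on either strand.
Slc16a1: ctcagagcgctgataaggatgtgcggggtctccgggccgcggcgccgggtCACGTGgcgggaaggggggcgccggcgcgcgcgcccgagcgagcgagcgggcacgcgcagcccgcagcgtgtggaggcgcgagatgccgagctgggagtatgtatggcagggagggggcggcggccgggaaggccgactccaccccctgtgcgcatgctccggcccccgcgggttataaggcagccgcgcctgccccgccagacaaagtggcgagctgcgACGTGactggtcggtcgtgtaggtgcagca
Slc16a3: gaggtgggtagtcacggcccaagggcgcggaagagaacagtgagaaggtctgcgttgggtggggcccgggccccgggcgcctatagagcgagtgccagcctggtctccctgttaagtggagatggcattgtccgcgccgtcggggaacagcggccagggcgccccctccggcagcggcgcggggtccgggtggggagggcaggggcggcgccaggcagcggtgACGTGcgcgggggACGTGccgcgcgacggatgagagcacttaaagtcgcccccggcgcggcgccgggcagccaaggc
The Slc16a1 window held 3 matches, of which 2 overlap on opposite strands in a CACGTG palindrome, and the Slc16a3 window held 2. RefSeq windows were found for 30 of the 33 genes, and Gpd1, Gys2 and Slc2a4 had none. ACGTG was in a window of 20 of the 30 genes (66.7%), against 21.8% of 27025 genes with windows of the same length. Per window it was in 49.0% of the members' 49 windows, against 19.6% of all windows. CACGTG, which contains ACGTG and is the E-box read by MYC and by the carbohydrate response factors, was in 6 of the 30 genes (20.0%), against 8.09% of all genes. The C/EBP-ATF composite letters TGATGNAAT were in a window of none of the 30 genes, against 1.08% of all genes. A match is a run of letters and does not show that a factor binds there.

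Glycogen genes overlapped between KO and WT with 1 exception. Their median log2 fold change, KO over WT, was -0.03 over 7 genes, and the median difference within a prefix was 0.21 in S2 and -0.29 in S1. Gyg, glycogenin, which primes the chain, measured 102 and 118 CPM in KO 1 and KO 2, against 97.5 and 101 CPM in WT 1 and WT 2. KO 1 and WT 2 were nearly level, and the log2 fold change was 0.14 (SE 0.18). Gys1 and Gys2 had log2 fold changes of 0.06 (SE 0.20) and -0.03 (SE 0.21). Ugp2, which makes UDP-glucose, the donor for glycogen synthesis, had 0.27 (SE 0.40). Pygl and Pygb, the liver and brain forms of glycogen phosphorylase, had -0.05 (SE 0.45) and -0.34 (SE 0.27). WT 1 was the highest library for Pygb, and its fold change lay between -0.60 and -0.042 with 1 library left out.

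**Figure D3:**
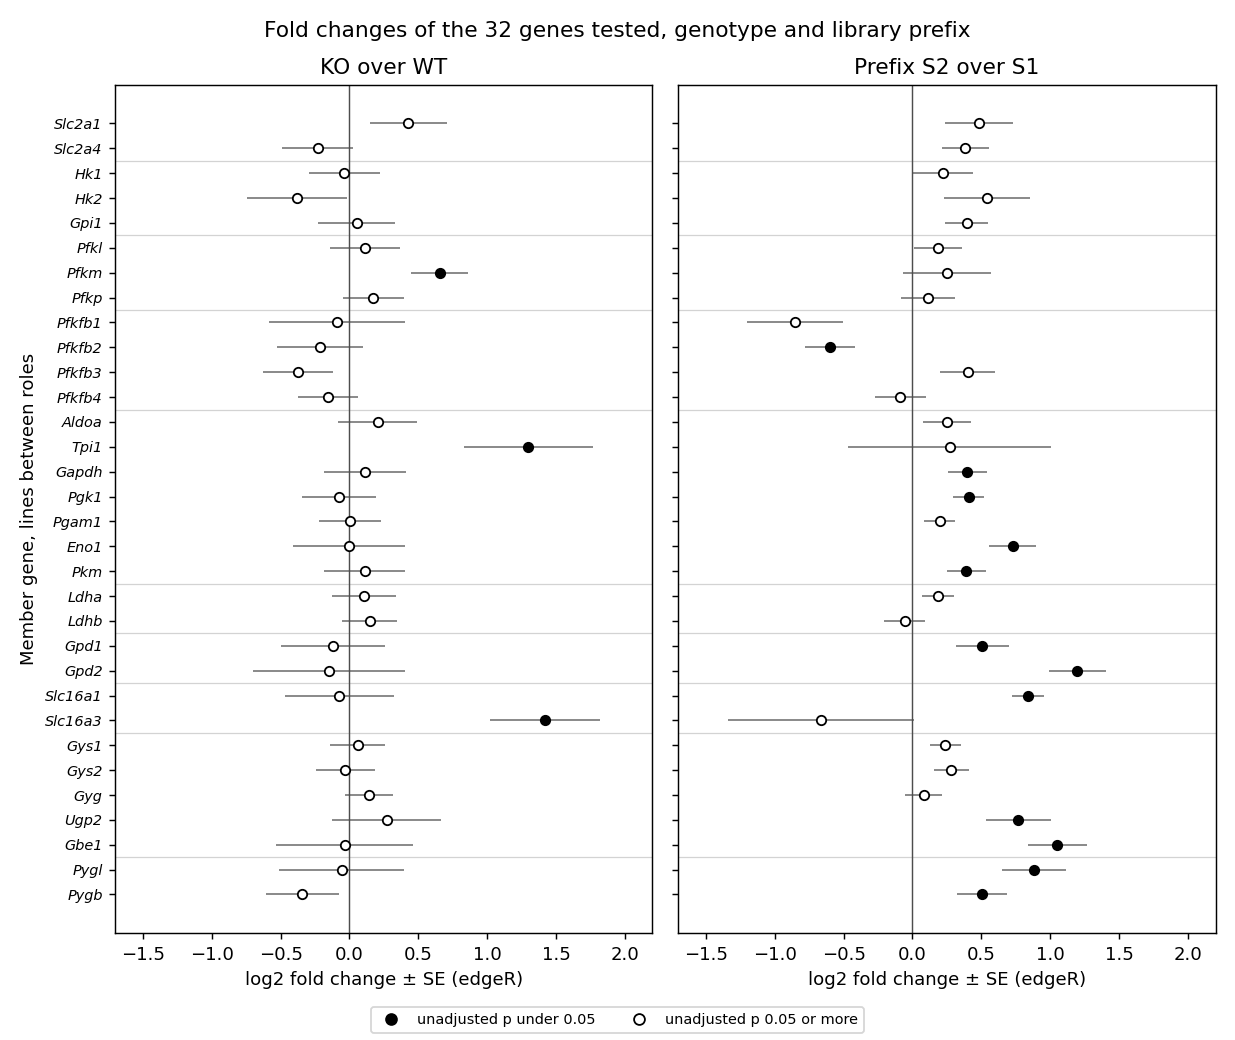
Log2 fold changes from edgeR for the 32 genes tested, with an SE derived from the F statistic, ordered by role. KO over WT is in the left panel and prefix S2 over S1 in the right panel. Filled points have an unadjusted p under 0.05. In the left panel 3 points are filled and the rest scatter about 0, and in the right panel 27 of 32 points lie above 0.

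The second comparison sets the libraries with the S2 prefix against those with the S1 prefix, each prefix holding 1 KO and 1 WT library. Most members were higher in S2, among them Gpd2, Gbe1, Pygl and Slc16a1, and Pfkfb1 and Pfkfb2 were lower. No member was called by edgeR's quasi-likelihood test, where 0.00639% of all genes were called (1 gene). Unadjusted p was under 0.05 for 12 of the 32 members, 11 higher and 1 lower in S2, beside 15.5% of all genes tested in both directions and 8.29% higher in S2. The median log2 fold change, S2 over S1, was 0.33 over the members, with 27 above and 5 below 0, and -0.01 over all genes tested, of which 48.4% lay above 0. S2 and S1 values did not overlap for 22 of the 32 members (20 higher and 2 lower in S2), a share of 68.8% beside 53.2% of all genes tested (27.3% higher in S2). The median difference S2 minus S1 was 0.46 in log2 CPM within KO and 0.20 within WT.

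With genotype as a term, edgeR called 3 members higher in S2, beside 3.14% of all genes, and they were Gpd2, Gbe1 and Slc16a1. DESeq2 called 7 members, beside 3.50% of all genes, and edgeR with no filter on low counts called 7, beside 3.06% of all genes. Those of DESeq2 were Gpd2, Slc16a1, Gbe1, Pygl, Eno1, Ugp2 and Pgk1, all higher in S2. Those with no filter were Gpd2, Slc16a1, Gbe1, Pygl, Eno1 and Ugp2, higher in S2, and Pfkfb1, lower in S2 (log2 fold change -0.85, adjusted p = 0.0247). Summed cell type markers also differed by prefix. Macrophage markers summed to 363 and 437 CPM in S2 (KO 2 and WT 1), against 124 and 329 CPM in S1 (KO 1 and WT 2). Of the 14 macrophage markers tested, 8 were higher in S2 without overlap, beside 27.3% of all genes tested. Endothelial markers summed to 910 and 830 CPM in S2, against 1416 and 1089 CPM in S1, and 8 of the 10 were lower and 1 (Cldn5, chosen after its values were seen) higher in S2 without overlap, beside 53.2% of all genes in both directions. Cldn5 measured 68.4 and 72.4 CPM in S2, against 27.9 and 14.5 CPM in S1. The part of these markers, and of the mitochondrial share given above, in the members' differences was not tested.

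Gpd2 (ENSMUSG00000026827, chromosome 2, 57237635 to 57370719, plus strand) measured 1137 and 1121 CPM in S2 (KO 2 and WT 1), against 401 and 584 CPM in S1 (KO 1 and WT 2). Its log2 fold change, S2 over S1, was 1.20 (SE 0.21, unadjusted p = 0.0021, adjusted p = 0.277, edgeR), and 1.22 with genotype as a term (adjusted p = 0.022). The S2 libraries were nearly level and both S1 libraries were lower, KO 1 most. Gpd1 measured 9226 and 8399 CPM in S2, against 5152 and 7240 CPM in S1, a log2 fold change of 0.51 (SE 0.19). Both genes of the shuttle were thus higher in S2 without overlap.

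Slc16a1 had the smallest unadjusted p of the members. It measured 427 and 448 CPM in S2 (KO 2 and WT 1), against 238 and 252 CPM in S1 (KO 1 and WT 2). The log2 fold change was 0.84 (SE 0.12, unadjusted p = 0.00076, adjusted p = 0.277, edgeR), with a difference of 0.85 within KO and 0.83 within WT. It was 0.84 with genotype as a term (adjusted p = 0.0393), and between 0.81 and 0.89 with each library left out. The pairs of libraries with the same prefix lay close together whatever their genotype. Slc16a3 went the other way, with 3.32 and 1.15 CPM in S2 against 5.12 and 1.99 CPM in S1, a log2 fold change of -0.66 (SE 0.68).

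Of the 7 glycogen genes 6 were higher in S2 without overlap (27.3% of all genes were), and the median log2 fold change, S2 over S1, was 0.51. Gbe1, the branching enzyme (ENSMUSG00000022707, chromosome 16, 70313949 to 70569716, plus strand), measured 259 and 225 CPM in S2 (KO 2 and WT 1), against 95.1 and 138 CPM in S1 (KO 1 and WT 2). Its log2 fold change was 1.05 (SE 0.21, unadjusted p = 0.0044, adjusted p = 0.277, edgeR), and 1.07 with genotype as a term (adjusted p = 0.0228). Pygl measured 659 and 561 CPM in S2, against 264 and 398 CPM in S1, a log2 fold change of 0.88 (SE 0.23). Enzymes of synthesis and of breakdown were thus higher in the same libraries. Ugp2 measured 204 and 134 CPM in S2, against 89.4 and 109 CPM in S1, a log2 fold change of 0.77 (SE 0.24). Pygb had a log2 fold change of 0.51 (SE 0.18), Gys1 of 0.24 (SE 0.11) and Gyg of 0.08 (SE 0.13). Gys2 depended on the scale, with a log2 fold change of 0.28 (SE 0.13) on counts and -0.23 on log2(TPM + 1), where it measured 41.4 and 38.3 TPM in S2 against 44.7 and 49.0 TPM in S1.

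The 19 tested genes of glycolysis had a median log2 fold change, S2 over S1, of 0.25. Of these 11 did not overlap, a share of 57.9% near the 53.2% of all genes. Of the 11, 9 were higher and 2 lower in S2, and 27.3% of all genes tested were higher without overlap. Eno1 measured 3446 and 2994 CPM in S2 (KO 2 and WT 1), against 1712 and 2180 CPM in S1 (KO 1 and WT 2), a log2 fold change of 0.73 (SE 0.17, unadjusted p = 0.0075, adjusted p = 0.277, edgeR). Pgk1, Gapdh and Pkm, also of the lower pathway, had log2 fold changes of 0.41 (SE 0.11), 0.40 (SE 0.14) and 0.39 (SE 0.14). Gpi1 had 0.39 (SE 0.15) and Slc2a4, at the entry, 0.38 (SE 0.17). The PFKFB genes were divided. Pfkfb1, the liver form, measured 10.9 and 21.5 CPM in S2, against 33.3 and 25.4 CPM in S1, a log2 fold change of -0.86 (SE 0.35). Pfkfb2, the heart form, measured 5.45 and 7.04 CPM in S2, against 9.10 and 9.80 CPM in S1, a log2 fold change of -0.60 (SE 0.18, unadjusted p = 0.023). Pfkfb3 was higher in S2, with a log2 fold change of 0.40 (SE 0.20).

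Beyond the members, 68 of 78 further genes of the same pathways were tested, and 4 of them were called higher and none lower in KO by edgeR's quasi-likelihood test, beside 0.767% of all genes called higher. The 4 are muscle genes. Eno3, the muscle enolase, measured 99.6 and 68.1 CPM in KO 1 and KO 2, against 6.34 and 6.15 CPM in WT 1 and WT 2, which is 3.75 on the log2 scale (SE 0.26, edgeR adjusted p = 0.0038). Pgam2, the muscle phosphoglycerate mutase, was higher by 5.05 in log2 units (SE 0.27, with an adjusted p of 0.0015), measuring 28.0 and 22.2 CPM in KO 1 and KO 2 against 0.892 and 0.626 CPM in WT 1 and WT 2. Pygm, the muscle glycogen phosphorylase, had 4.46 (SE 0.23, adjusted p = 0.0014), with 41.7 and 48.4 CPM in KO 1 and KO 2 against 1.75 and 2.31 CPM in WT 1 and WT 2. Eno3, Pgam2 and Pygm are also in the list of 22 skeletal muscle markers, of which 20 were called higher in KO. Ppp1r3a, which targets a phosphatase to glycogen in muscle, had 157 counts over both KO libraries and 0 over both WT libraries, so that it was at least 65.1-fold higher in KO, taking 3 counts over the WT group as the floor. Phkg1, the muscle catalytic subunit of phosphorylase kinase, measured 10.5 and 7.81 CPM in KO 1 and KO 2, against 1.18 and 3.05 CPM in WT 1 and WT 2. It was not called (log2 fold change 2.10, adjusted p = 0.310) except when the prefix entered as a block (adjusted p = 0.00095) and by DESeq2.

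Muscle forms made up more of 3 enzymes in KO, while the values of their general forms overlapped between genotypes. Eno3 made up 7.44 and 3.08% of enolase TPM (with Eno1) in KO 1 and KO 2, against 0.362 and 0.429% in WT 1 and WT 2. Pgam2 made up 8.95 and 6.12% of phosphoglycerate mutase TPM (with Pgam1) in KO 1 and KO 2, against 0.272 and 0.210% in WT 1 and WT 2. Pygm made up 16.3 and 6.29% of glycogen phosphorylase TPM (with Pygl and Pygb) in KO 1 and KO 2, against 0.400 and 0.710% in WT 1 and WT 2. In each case the KO libraries lay above the WT libraries. The general forms had log2 fold changes, KO over WT, of -0.0045 for Eno1 (SE 0.40), 0.0027 for Pgam1 (SE 0.22) and -0.05 for Pygl (SE 0.45).

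**Figure D4:**
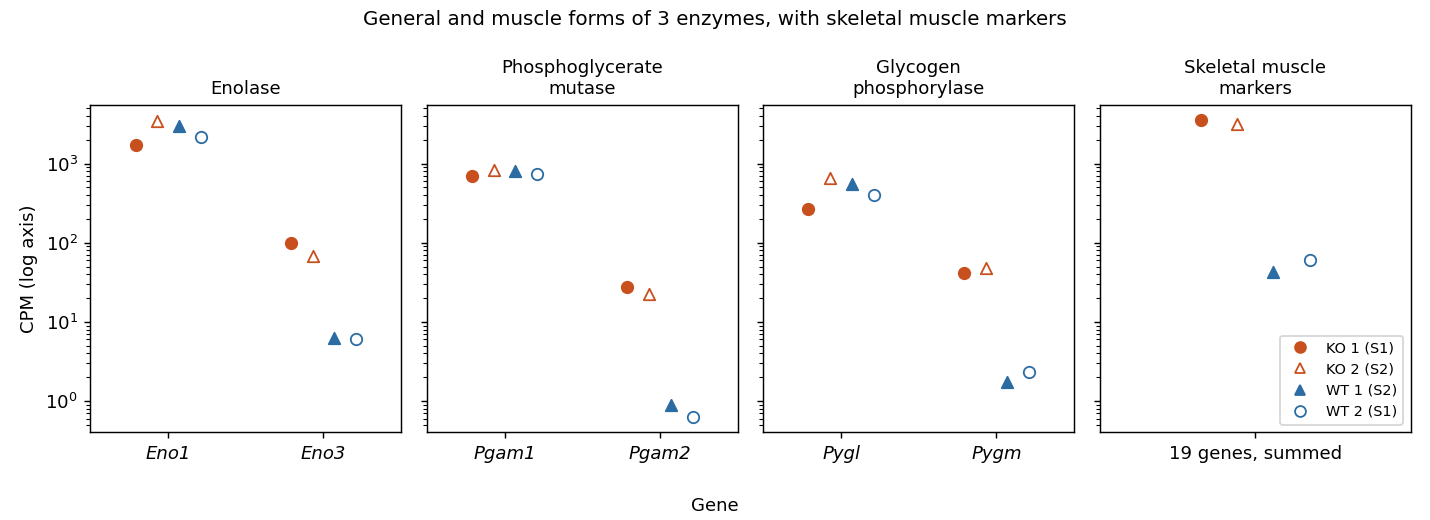
CPM on a log axis of the general form (left in each panel) and the muscle form (right) of enolase, phosphoglycerate mutase and glycogen phosphorylase in each library, with the sum of 19 skeletal muscle markers in the last panel. KO is orange and WT blue, triangles are prefix S2 and circles S1. The muscle forms and the muscle markers lie higher in both KO libraries, and the general forms overlap between genotypes.

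In the prefix comparison none of the 68 further genes was called by edgeR, and 13 had an unadjusted p under 0.05 (10 higher and 3 lower in S2), beside 15.5% of all genes. With genotype as a term 2 were called, both lower in S2, beside 3.14% of all genes. Fbp2, the muscle fructose bisphosphatase, measured 14.8 and 11.4 CPM in S2 (KO 2 and WT 1), against 27.9 and 23.1 CPM in S1 (KO 1 and WT 2), a log2 fold change of -0.96 (SE 0.18, with adjusted p = 0.277 by edgeR and 0.0087 with genotype as a term). Bsg, the chaperone that carries MCT1 and MCT4 to the plasma membrane, measured 501 and 359 CPM in S2, against 1114 and 683 CPM in S1, a log2 fold change of -1.06 (SE 0.29, with adjusted p = 0.285 by edgeR and 0.0268 with genotype as a term). Bsg was thus lower in the libraries in which Slc16a1 was higher. Tkt, transketolase of the pentose phosphate pathway, measured 2494 and 2142 CPM in S2, against 1103 and 1367 CPM in S1, a log2 fold change of 0.91 (SE 0.16). Txnip, an inhibitor of glucose uptake, had 0.44 (SE 0.11). Trarg1, a regulator of GLUT4 traffic, had 0.66 (SE 0.16), and Ldhd, the D-lactate dehydrogenase, had 0.45 (SE 0.12). DESeq2 called 6 of the 68, beside 3.50% of all genes, and these were Ldhd, Tkt, Txnip and Trarg1, higher in S2, and Fbp2 and Bsg, lower in S2.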

How the data were processed

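Per the labels' protocols, total RNA was extracted with TRIzol, purified with an RNeasy kit and made into stranded TruSeq mRNA libraries. The tool was kallisto 0.45.0 and the build mm10, per the submitters' processing notes. Per the file headers the authors deposited an estimated count and a TPM value for each of 141450 transcripts. No source used here states the transcript set, the strand setting or trimming.

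Transcripts were assigned to genes with GENCODE vM21 (GRCm38) by identifier without version, which matched 97.7%. The 3259 unmatched transcripts held 0.992 to 1.04% of counts and stayed out of the sums. The deposited estimated counts were added up by gene and then rounded, and the deposited TPM values were added up by gene. kallisto splits reads that fit several transcripts, so genes with near-identical copies are uncertain.

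Genes were tested with edgeR 4.0.16 (R 4.3.3, quasi-likelihood F test) using TMM scaling, filterByExpr (minimum count 10, minimum total count 15) and Benjamini-Hochberg adjustment over 15643 genes, with a threshold of 0.05. It was fitted for genotype, then for prefix, with no other term. The SE given with an edgeR fold change was derived from the F statistic, as the absolute log2 fold change divided by the square root of F. Alternatives were DESeq2 1.42.0 and its size factors, limma 3.58.1 on log2(TPM + 1), other filters, leaving out each library, blocks, added copies, and removal of mitochondrial and muscle genes. Adding unmatched transcripts of identical length and counts was chosen after seeing the data. Within-prefix differences used log2 CPM with a prior count of 2. Fits with 1 library in a group assume that it varies like the other group. The tests were tried on simulated data.

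The members and gene lists were chosen with earlier results of these data known. The text gives all 33 members, pathway genes called in either comparison, and up to 6 pathway genes with the smallest unadjusted p per comparison. As deviations from the genotype mean in log2 CPM, same-numbered KO and WT libraries had a correlation of -0.38 and those of the same prefix 0.38. With 2 libraries a genotype these are the same value with its sign turned, so neither adds to the other.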

Additional observations from a re-analysis of the deposited data

How the results depend on the processing

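Between KO and WT, 122 genes were called by edgeR, 457 with no filter on low counts, 218 by DESeq2, 320 with the prefix as a block and 158 to 235 with 1 library left out (185 without KO 2 and 235 without WT 2). Members called were 0, and 2 (Slc16a3 and Tpi1) with no filter and with the prefix as a block, and 0 to 1 with 1 library left out (Tpi1 without the library labelled WT 1). With replicate numbers as a block 164 genes and 0 members were called. No label says that a number marks a shared animal or day, and the crossed pairing of the numbers is the prefix block. Between S2 and S1, 1 gene was called, 823 with no filter, 548 by DESeq2, 491 with genotype as a term, 0 with the replicate block and 0 to 1 with 1 library left out (0 without KO 1, KO 2 or WT 1). Members called were 0, with 7 (no filter), 7 (DESeq2) and 3 (genotype as a term).

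Signs of members that were not called often turned with 1 library left out. The log2 fold change KO over WT then ranged from -0.54 to 0.019 for Slc2a4, -0.41 to 0.26 for Hk1, -1.02 to 0.061 for Hk2, -0.31 to 0.34 for Gpi1, -0.15 to 0.33 for Pfkl, -0.063 to 0.37 for Pfkp, -1.11 to 0.49 for Pfkfb1, -0.62 to 0.10 for Pfkfb2, -0.068 to 0.43 for Aldoa, -0.21 to 0.38 for Gapdh, -0.29 to 0.16 for Pgk1, -0.14 to 0.13 for Pgam1, -0.60 to 0.42 for Eno1, -0.21 to 0.38 for Pkm, -0.0087 to 0.21 for Ldha, -0.61 to 0.24 for Gpd1, -1.10 to 0.42 for Gpd2, -0.57 to 0.40 for Slc16a1, -0.067 to 0.20 for Gys1, -0.29 to 0.19 for Gys2, -0.45 to 0.75 for Ugp2, -0.94 to 0.52 for Gbe1 and -0.87 to 0.46 for Pygl. S2 over S1 it ranged from -0.019 to 0.37 for Pfkl, -0.089 to 0.71 for Pfkm, -0.15 to 0.34 for Pfkp, -0.17 to 0.013 for Pfkfb4, -0.47 to 1.87 for Tpi1, -0.20 to 0.12 for Ldhb, -1.61 to 0.17 for Slc16a3 and -0.054 to 0.22 for Gyg. On log2(TPM + 1), limma gave a KO over WT difference of -0.027 for Gpi1, -0.021 for Pfkl, 0.0039 for Pfkfb4, -0.11 for Pgam1, -0.018 for Pkm, -0.011 for Ldha and -0.073 for Gys1, and a S2 over S1 difference of -0.026 for Pfkp, 0.069 for Pfkfb4 and -0.23 for Gys2. Pgam1 was -0.0015 KO over WT with either block, Eno1 was 0.0026 with no filter, and Ldhb was 0.061 S2 over S1 with the unmatched transcript added. The cause of these changes was not tested. With 2 libraries a group, a fit with 1 left out rests on the spread of the other group.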
